A study of Mus musculus with 8 samples.

Results

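The 7 genes described here, Ffar4, Adora2b, P2ry2, F2rl1, Gprc5a, Vipr1 and Ptger4, encode G protein coupled receptors that are studied in epithelia. They were found by matching their symbols to the gene identifiers of the count table, and they are 7 of its 55401 genes. All 7 had counts high enough to be tested, as did 16964 genes in all. The genes were picked with the difference between the groups of this study already known, so their values are given as a description, without tests.

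RNA was sequenced from 8 mouse libraries that the labels call airway cells, taken 10 days after tamoxifen. The 4 control libraries were labelled Scgb1a1cre; Cdh1F/+ and the 4 mutant libraries Scgb1a1cre; Cdh1F/F. Cdh1 encodes the adhesion protein E-cadherin. Both groups carried the Cre and received tamoxifen, and the controls carried a single floxed allele. The Cre is named for Scgb1a1, a club cell gene, so recombination is meant to happen in club cells, while each library holds RNA of many cell types. The series text describes depletion of immune and endothelial cells, EPCAM selection and a GFP sort, but no label says which fraction a library holds. Ages and sexes are not given in the labels, and no label states in words that each library came from its own animal, so the spread between libraries may be partly technical.

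A receptor of this class sits in the cell membrane and passes an outside signal to a G protein inside. Receptors coupled to Gs raise cyclic AMP, receptors coupled to Gq raise calcium, and receptors coupled to Gi lower cyclic AMP. In airway epithelium such signals are known to set chloride and fluid secretion, mucus release, ciliary beating and the response to injury.

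Total counts ran from 15111663 to 21673654 per library. Levels are in CPM, counts relative to a common library total scaled for composition, and 3 counts, the most that a count of 0 allows, were worth 0.1358 to 0.2066 CPM on that scale. This limit covers counting error only. Cdh1 differed by 0.07 on the log2 scale. Counts summed over all its exons do not show whether the floxed ones were lost, so this gene does not check the labels, and the second group is named mutant-labelled. On principal component 1 (48.8% of variance) controls 1 and 4 stood apart from controls 2 and 3 (at -4.1 and -9.8 against -46.5 and -53.7), and the mutant-labelled libraries lay between 24.5 and 31.6. Summed over 8 general epithelial markers, 6 of which rose, the level was 981.8 to 1323 CPM in controls, against 1828 to 2091 CPM in mutant-labelled libraries. The sum of 6 club cell markers, 4 of which fell, went from 25100 to 27540 CPM down to 8509 to 10730 CPM, and that of 6 ciliated cell markers, 5 of which rose, from 520.4 to 693.4 CPM up to 701.2 to 908.8 CPM. Endothelial markers (3 of 7 fell) summed to 4007 to 5012 CPM and 3531 to 3747 CPM, and myeloid markers (2 of 7 rose) to 5499 to 7505 CPM and 5286 to 7758 CPM. Sums of alveolar type I, alveolar type II, lymphoid and fibroblast markers overlapped between the groups, those of type II cells at 22100 to 31710 CPM in controls and 24240 to 30420 CPM in the others. The libraries thus hold RNA beyond that of airway cells. Sftpc, the surfactant gene that defines alveolar type II cells, was at 17860 CPM in controls, above the sum of the 8 general epithelial markers, and endothelial markers also summed to more than the general epithelial ones although the series text describes endothelial depletion. No marker of the 9 lists was at 0 in any library. The part that these shifts in cell makeup have in the values below was not tested, and in RNA from mixed cells fewer cells of a type and less RNA per cell cannot be told apart.

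Of the 7 receptor genes, Ffar4, Adora2b and P2ry2 were higher in every mutant-labelled library than in any control, and Vipr1 was lower in every one. Ptger4, F2rl1 and Gprc5a overlapped between the groups. Groups that do not overlap were thus found for 4 of 7 members, against 16.8% of all genes tested (9.75% higher and 7.07% lower). Because the members were picked on this difference, nothing is read from that count.

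**Figure D1:**
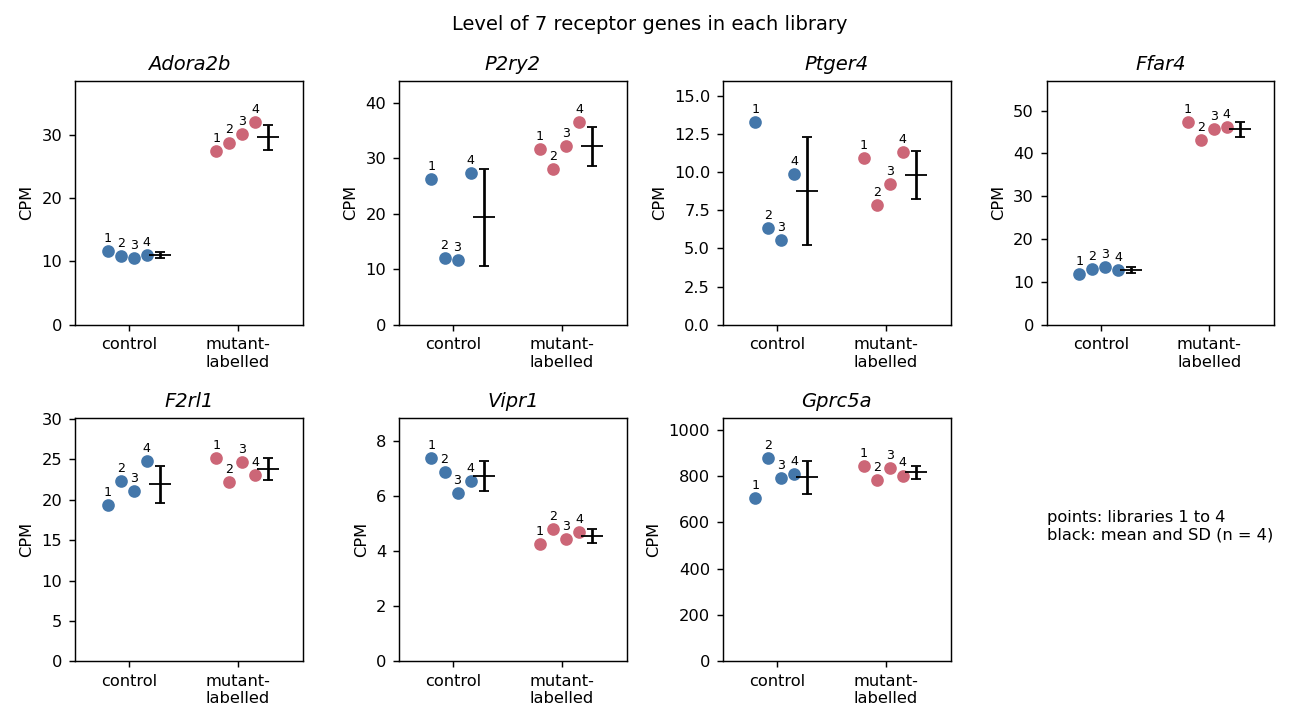
Level of each receptor gene in CPM (linear axis from 0), 1 numbered point per library, with the mean and SD of each group in black (n = 4). Mutant-labelled points lie above all controls for Adora2b, P2ry2 and Ffar4, below all controls for Vipr1, and among them for Ptger4, F2rl1 and Gprc5a.

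Ffar4 (ENSMUSG00000054200.7, formerly GPR120) is a receptor for long-chain fatty acids, omega-3 fatty acids among them. Its 3 exon blocks lie on the plus strand of chromosome 19, at 38097071 to 38114263 of GRCm38. Its level was 11.9, 13, 13.4 and 12.7 CPM in controls 1 to 4 and 47.4, 43.1, 45.7 and 46.1 CPM in mutant-labelled libraries 1 to 4. The controls lay close together, and every mutant-labelled library was far above them. The group means were 12.74 ± 0.661 CPM and 45.57 ± 1.78 CPM (SD, n = 4 each), a 3.58-fold difference or 1.84 ± 0.07 on the log2 scale (SE). Leaving out any single library kept the log2 difference between 1.81 and 1.86, and leaving out controls 1 and 4 or controls 2 and 3 together kept it between 1.78 and 1.89. As a percent of Epcam, an epithelial surface gene that itself rose by 0.61 on the log2 scale, the Ffar4 level was 19.1% in controls, against 44.5% in mutant-labelled libraries, a 2.33-fold ratio without overlap.

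Adora2b (ENSMUSG00000018500.2) encodes the low-affinity adenosine receptor, which couples to Gs and is known for driving chloride secretion through CFTR. Its 2 exon blocks lie on the plus strand of chromosome 11, at 62248984 to 62266453. It stood at 11.7, 10.8, 10.6 and 11 CPM in the controls and at 27.4, 28.8, 30.2 and 32.1 CPM in the mutant-labelled libraries. Again the controls were close to each other, and no mutant-labelled library came near them. Its means of 11.02 ± 0.446 CPM and 29.62 ± 2.0 CPM (SD, n = 4 each) differed 2.69-fold, or by 1.43 ± 0.08 on the log2 scale (SE). The difference stayed between 1.38 and 1.46 without any single library. Adora2b was 16.6% of Epcam in controls, against 29.0% in mutant-labelled libraries, again without overlap.

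P2ry2 (ENSMUSG00000032860.5) encodes a Gq-coupled receptor for extracellular ATP and UTP, which acts on mucin release and on chloride secretion through calcium. Its 4 exon blocks lie on the minus strand of chromosome 7, at 100996568 to 101012866. Its level was 26.3, 12, 11.6 and 27.4 CPM in controls 1 to 4 and 31.6, 28.1, 32.2 and 36.6 CPM in the mutant-labelled libraries. Controls 2 and 3 were low, while controls 1 and 4 came close to the lowest mutant-labelled library. The means were 19.31 ± 8.7 CPM and 32.13 ± 3.49 CPM (SD, n = 4 each), 1.65-fold apart, with a log2 difference of 0.73 ± 0.28 (SE). The coefficient of variation was 45.1% over controls and 10.9% over mutant-labelled libraries. Without controls 1 and 4 the log2 difference was 1.45, and without controls 2 and 3 it was 0.26. Against Epcam the groups of P2ry2 overlapped, at 29.5% and 31.5%.

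Ptger4 (ENSMUSG00000039942.15) encodes EP4, a Gs-coupled receptor for prostaglandin E2. Its 5 exon blocks lie on the minus strand of chromosome 15, at 5206661 to 5244187. The values were 13.3, 6.34, 5.53 and 9.84 CPM in controls 1 to 4 and 10.9, 7.85, 9.19 and 11.3 CPM in the mutant-labelled libraries. Control 1 was the highest of all 8 libraries and control 3 the lowest, so the groups overlapped fully. The means were 8.749 ± 3.56 CPM and 9.812 ± 1.6 CPM (SD, n = 4 each), and the log2 difference was 0.16 ± 0.26 (SE). Its sign depended on the controls used, at 0.73 without controls 1 and 4 and -0.24 without controls 2 and 3. It was -0.01 to 0.44 without any single library. Ptger4 also shares exon bases with genes of the other strand, 82 bases (1.23%) with Ttc33 and 1015 bases (15.3%) with Gm15937. Counting did not use strand and dropped reads over more than 1 gene, so read pairs lying within those bases were not counted for either gene. The Ptger4 level per kilobase below still divides by all its exon bases. Gm15937 had 0 counts in all 8 libraries, which cannot show that it is silent, because reads over the shared bases were dropped. The other 6 receptor genes overlap no annotated gene.

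Ptger4 and P2ry2 were high and low in the same controls. With each group's mean removed, their log2 CPM values had a Pearson correlation of 0.91 over the 8 libraries, and both genes were higher in controls 1 and 4 than in controls 2 and 3. All genes measured in a library share its depth and cell makeup, and the control libraries differ in both. The 8 lymphoid markers, from genes of T, B and natural killer cells, summed to 78.81, 57.79, 41.97 and 88.33 CPM in controls 1 to 4. Of these, 6 were higher in both controls 1 and 4 than in controls 2 and 3, as Ptger4 and P2ry2 were. The 7 myeloid markers were mixed, with 3 of them higher in controls 1 and 4 and 2 lower. Ptprc, the general leukocyte marker, was at 204, 75.6, 64.1 and 101 CPM in controls 1 to 4, and Lyz2, which makes up most of the myeloid sum and is also expressed by alveolar type II cells, was at 5250, 7010, 7160 and 5100 CPM. Other lists split between the same controls. Of 7 fibroblast and smooth muscle markers, 4 were higher in controls 1 and 4 and 2 lower. Of 6 club markers 1 was higher and 5 lower, of 6 type I markers 1 and 3, and of 6 type II markers 0 and 4. Of 6 ciliated markers 2 were higher and 0 lower, of 7 endothelial markers 0 and 2, and of 8 epithelial markers 0 and 1. The part of any of these cell types in the spread of Ptger4 and P2ry2 was not tested.

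F2rl1 (ENSMUSG00000021678.9) encodes PAR2, a receptor that serine proteases switch on by cutting its outer end. Its 2 exon blocks lie on the minus strand of chromosome 13, at 95511732 to 95525227. It was at 19.3, 22.3, 21.1 and 24.8 CPM in controls and at 25.1, 22.2, 24.7 and 23.0 CPM in mutant-labelled libraries. The groups overlapped, with means of 21.87 ± 2.32 CPM and 23.76 ± 1.37 CPM (SD, n = 4 each) and a log2 difference of 0.12 ± 0.09 (SE). Relative to Epcam it was lower in mutant-labelled libraries, 23.2% against 32.6%, since Epcam rose and F2rl1 differed little.

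Vipr1 (ENSMUSG00000032528.5) encodes VPAC1, a Gs-coupled receptor for the neuropeptides VIP and PACAP. Its 14 exon blocks lie on the plus strand of chromosome 9, at 121642716 to 121672954. It was measured at 7.37, 6.89, 6.11 and 6.56 CPM in controls 1 to 4 and at 4.26, 4.8, 4.43 and 4.71 CPM in the mutant-labelled libraries. The lowest control was above the highest mutant-labelled library. The means were 6.732 ± 0.531 CPM and 4.548 ± 0.25 CPM (SD, n = 4 each), 1.48-fold lower in the mutant-labelled group, and the log2 difference was -0.57 ± 0.12 (SE). Without any single library it was between -0.61 and -0.52. Relative to Epcam the level was 0.438 times that of the controls, at 10.1% and 4.45%.

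Gprc5a (ENSMUSG00000046733.7) encodes an orphan receptor that retinoic acid induces and that is known for its high level in lung epithelium. Its 4 exon blocks lie on the plus strand of chromosome 6, at 135065651 to 135084709. Its level was 704, 876, 791 and 810 CPM in controls, against 844, 784, 834 and 802 CPM in mutant-labelled libraries. Control 1 was lowest, control 2 was highest, and all mutant-labelled libraries lay between them. The means of 795.1 ± 70.9 CPM and 815.9 ± 27.5 CPM (SD, n = 4 each) gave a log2 difference of 0.04 ± 0.08 (SE). Relative to Epcam, Gprc5a was at 1190% in controls, against 797% in mutant-labelled libraries, 0.672 times as high and without overlap.

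**Figure D2:**
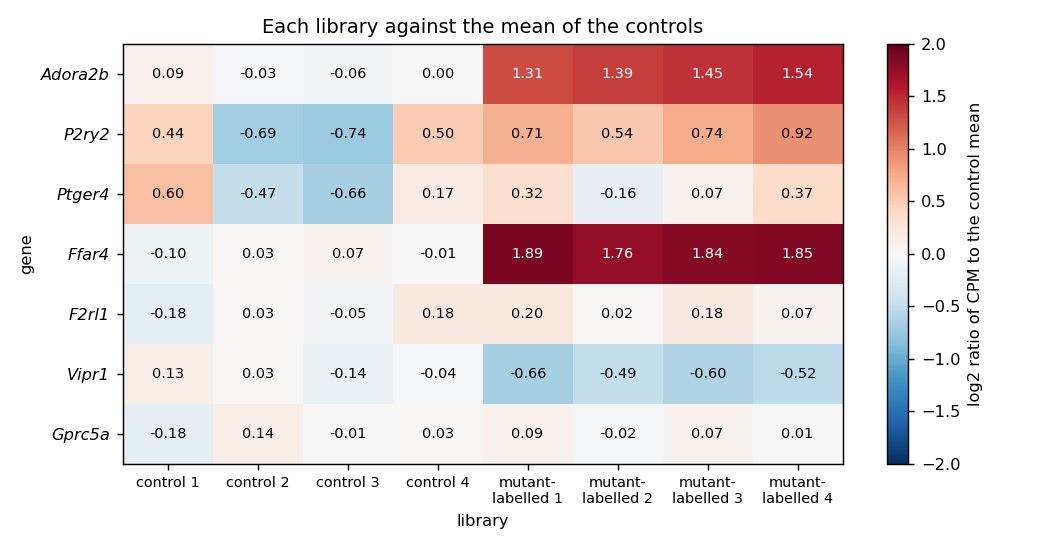
Log2 ratio of each library's CPM to the mean of the 4 controls, with genes in rows and libraries in columns, red for higher and blue for lower. Ffar4 is at 1.76 to 1.89 and Adora2b at 1.31 to 1.54 in all mutant-labelled libraries, while P2ry2 and Ptger4 are low in controls 2 and 3.

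The sequences just before the gene starts of the members that did not overlap are shown because these genes differed between the groups in opposite directions. Promoter windows from RefSeq (GRCm38.p6) matched 5 of the 7 members, by symbol. F2rl1 and Gprc5a had no entry. Of each window the bases upstream of the deposited gene model are given, 5′ to 3′ along the gene's strand. Capitals mark every match, on either strand, to 6 motifs. The GC box was searched as GGGCGG and the CCAAT box by the letters of its name. The core of the cyclic AMP response element was searched as TGACG. The AP-1 site was searched as TGANTCA. The core of the hypoxia response element was searched as ACGTG. The TATA box was searched as TATAAA. The windows of P2ry2 lie inside its gene model and are not printed. Ffar4 is at chr19:38096829-38097070, Adora2b at chr11:62248734-62248983 and Vipr1 at chr9:121642466-121642715, all on the plus strand.
Ffar4: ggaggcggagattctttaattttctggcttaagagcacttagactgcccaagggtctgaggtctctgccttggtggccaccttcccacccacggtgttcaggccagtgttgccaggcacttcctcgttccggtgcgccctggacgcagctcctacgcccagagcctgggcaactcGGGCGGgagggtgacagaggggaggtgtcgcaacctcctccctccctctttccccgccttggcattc
Adora2b: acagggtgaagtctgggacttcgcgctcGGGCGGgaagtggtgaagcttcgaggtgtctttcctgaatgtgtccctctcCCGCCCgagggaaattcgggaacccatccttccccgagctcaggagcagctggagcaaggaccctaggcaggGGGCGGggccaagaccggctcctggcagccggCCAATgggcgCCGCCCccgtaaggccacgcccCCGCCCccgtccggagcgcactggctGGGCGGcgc
Vipr1: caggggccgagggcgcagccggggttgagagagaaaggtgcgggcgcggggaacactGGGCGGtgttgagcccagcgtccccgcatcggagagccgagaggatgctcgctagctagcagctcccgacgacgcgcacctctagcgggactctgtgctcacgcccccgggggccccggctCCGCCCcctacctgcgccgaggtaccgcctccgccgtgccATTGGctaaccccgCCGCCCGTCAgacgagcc
The Ffar4 stretch held 1 GC box and no other of these motifs. Adora2b held 6 GC boxes and 1 CCAAT box. Vipr1 held 3 GC boxes, 1 CCAAT box and 1 cyclic AMP core, which overlaps a GC box. In 27025 promoters the upstream 250 bases held a GC box in 32.9%, a CCAAT box in 34.5%, the cyclic AMP core in 17.9%, the AP-1 site in 6.87%, the hypoxia core in 16.6% and the TATA box in 13%. GC content was 62.0%, 69.6% and 72.8% in Ffar4, Adora2b and Vipr1, against a median of 52.0% over promoters. A match is only a run of letters, and no binding was measured.

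Compared per kilobase of exon, so that genes of different length can be ordered, Gprc5a was far above the other members, at 382 CPM per kilobase in controls, against 392 in mutant-labelled libraries. In controls Ffar4 (9.1), F2rl1 (7.98), Adora2b (5.97), P2ry2 (4.92), Ptger4 (1.32) and Vipr1 (1.16) followed, all as mean CPM per kilobase. Their library ranges overlapped between Ffar4 and F2rl1, between Adora2b and P2ry2, and between Ptger4 and Vipr1. In mutant-labelled libraries the order was Ffar4 (32.5), Adora2b (16.1), F2rl1 (8.67), P2ry2 (8.18), Ptger4 (1.48) and Vipr1 (0.784). There, among neighbours, only F2rl1 and P2ry2 overlapped.

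Among 325 G protein coupled receptor genes in the table other than chemosensory ones, 185 were tested. Gprc5a had the highest mean level per kilobase of all 325, Ffar4 ranked 16, Adora2b 28, F2rl1 37, P2ry2 45, Ptger4 105 and Vipr1 121. By log2 difference Ffar4 ranked 1 of 185, Adora2b 5, P2ry2 12 and Vipr1 169. These ranks describe genes that were picked for their difference.

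**Figure D3:**
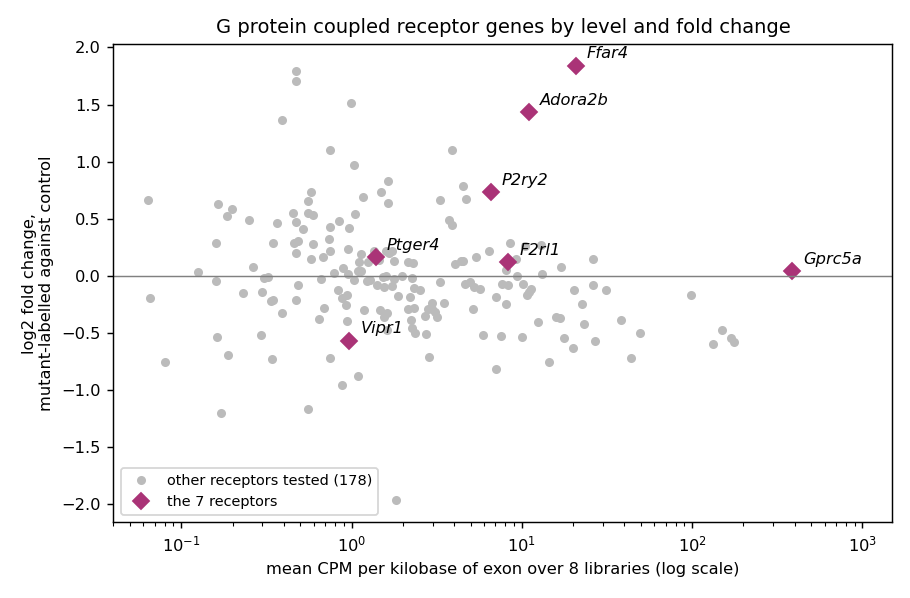
Mean CPM per kilobase of exon over 8 libraries (log axis) against the log2 difference of mutant-labelled minus control, 1 point per receptor gene tested, with the 7 members as diamonds and the 178 others in grey. Ffar4 has the highest log2 difference (1.84) and Gprc5a the highest level.

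By the quasi-likelihood test of edgeR, with p adjusted over all genes after Benjamini and Hochberg, 9 of the 178 other receptors rose and 8 fell, 9.55% of them, against 7.81% of all genes (5.45% higher and 2.36% lower). Their median log2 difference was -0.06, and that of all genes was -0.01. The gene lists here and below were chosen with earlier results of these data known, so nothing is read from their shares. Adra2a, an adrenergic receptor, rose 3.46-fold from 1.022 ± 0.148 CPM to 3.551 ± 1.03 CPM (SD, n = 4 each; edgeR adjusted p = 0.0029). Cckar, a cholecystokinin receptor, fell 1.46-fold from 76.93 ± 9.95 CPM to 52.5 ± 4.48 CPM (edgeR adjusted p = 0.0101). Cxcr4, the chemokine receptor for CXCL12, fell 1.49-fold from 58.4 ± 9.44 CPM to 39.24 ± 1.39 CPM (edgeR adjusted p = 0.0127), and Lpar3, a receptor for lysophosphatidic acid, fell 1.76-fold (adjusted p = 0.0109). Adgrl3, an adhesion receptor, fell 1.37-fold from 46.6 ± 5.88 CPM to 33.94 ± 1.69 CPM (SD, n = 4 each; edgeR adjusted p = 0.0212), but this call failed with control 2, control 3 or any mutant-labelled library left out (adjusted p up to 0.0646). The calls of Adra2a, Cckar, Cxcr4 and Lpar3 held without any single library, and that of Lpar3 was lost without controls 2 and 3 (edgeR adjusted p = 0.0587). The 8 calls of lower level became 18 without control 1, 16 without control 4, 3 without control 2, 4 without control 3, 5 without mutant-labelled library 3 and 3 without each of the other mutant-labelled libraries. The 9 calls of higher level became 4 without mutant-labelled library 1 and 5 without library 2.

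Closest to the members in sequence family stand 30 paralog receptors, of which 25 were tested. Of these, 3 rose and 0 fell by edgeR's quasi-likelihood test (12% called, against 7.81% of all genes), and the median log2 difference was 0.01. At an unadjusted p under 0.05, 4 were higher and 2 lower, and DESeq2 called 1 lower. Ffar2, a receptor for short-chain fatty acids, was at 1.3, 1.79, 1.23 and 1.38 CPM in controls and at 4.89, 3.82, 4.43 and 3.17 CPM in mutant-labelled libraries, 2.86-fold higher (edgeR's quasi-likelihood test, adjusted p = 0.00209). Adora3, a Gi-coupled adenosine receptor, rose 3.27-fold from 0.8113 to 2.686 CPM (edgeR adjusted p = 0.00125), and Gprc5c, an orphan receptor related to Gprc5a, rose 1.73-fold from 17.31 ± 3.16 to 29.86 ± 3.57 CPM (SD, n = 4 each; edgeR adjusted p = 0.00846). In all 3 genes the groups did not overlap, and the calls held without any single library. These 3 are also among the 9 other receptors that rose.

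The paralog with the highest level in each family, other than that of the free fatty acid receptors, did not pass the test. Gprc5b, at a higher level than Gprc5c, was at 39.25 CPM in controls, against 37.22 CPM in mutant-labelled libraries (edgeR adjusted p = 0.538). Adora2a, like Adora2b a Gs-coupled adenosine receptor, was at 7.749 CPM in controls, against 6.438 CPM in mutant-labelled libraries (edgeR adjusted p = 0.517). P2ry6, a UDP receptor, was at 14.63 and 16.44 CPM (edgeR adjusted p = 0.549), and F2r, the thrombin receptor PAR1, at 349.7 and 311.2 CPM (adjusted p = 0.429). Vipr2, the other VIP receptor, was at 22.78 and 21.79 CPM (edgeR adjusted p = 0.833). Ptgfr, the receptor for prostaglandin F2 alpha, was at 23.88 and 14.58 CPM, a log2 difference of -0.71 that missed the threshold (edgeR adjusted p = 0.0525). It passed without control 1, without control 4 and in 5 other settings, DESeq2 among them. Across gene families, Ffar2 and Adora3 differed in the same direction as Ffar4 and Adora2b. No P2Y, protease-activated, VIP or prostanoid paralog was called in the main fit.

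Genes that make, release or remove the members' ligands were read from a list of 46, of which 43 were tested. In this list 12 rose and 1 fell (30.2% called, against 7.81% of all genes), and the median log2 difference was 0.19. The share is a description only, because the list was chosen with earlier results of these data known. The list mixes suppliers and removers, so its median has no single meaning for ligand supply. Its count of higher calls became 7 without control 2 or without mutant-labelled library 2, and its count of lower calls 9 without control 1, 4 without control 4 and 0 without any other single library.

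The list holds serine proteases, a class that includes activators of PAR2, and their inhibitors. Prss22, a serine protease of airway epithelium, had 1, 2, 2 and 7 counts in controls 1 to 4 and 187, 107, 132 and 186 counts in mutant-labelled libraries, or 0.1655 ± 0.134 and 8.104 ± 2.07 CPM (SD, n = 4 each; edgeR adjusted p = 6.06e-05). St14, which encodes matriptase, a membrane protease that can cut PAR2, was at 62.9, 68.1, 66.2 and 71.7 CPM in controls, against 131, 126, 119 and 118 CPM in mutant-labelled libraries, 1.83-fold higher (edgeR adjusted p = 8.81e-05). F7, coagulation factor VII, which with tissue factor can activate PAR2, rose 2.15-fold from 12.72 ± 0.577 to 27.45 ± 0.868 CPM (SD, n = 4 each; edgeR adjusted p = 4.42e-05). All 4 mutant-labelled libraries were above all controls in these 3 genes. Klk10, of the kallikrein family, rose 5.07-fold from 0.6037 to 3.041 CPM (edgeR adjusted p = 0.00148), and Tmprss4 rose 1.46-fold (adjusted p = 0.00937). The Kunitz inhibitors of matriptase rose less, Spint1 1.33-fold (edgeR adjusted p = 0.00876) and Spint2 1.29-fold (adjusted p = 0.0327). The call of Spint2 did not hold when control 2, control 3 or mutant-labelled library 1, 2 or 4 was left out (edgeR adjusted p up to 0.0931). The calls of Prss22, St14, F7, Klk10, Tmprss4 and Spint1 held without any single library. Other proteases of the list did not pass the test. Prss8, or prostasin, was at 104 CPM in controls and lower, at 78.41 CPM, in mutant-labelled libraries without overlap (edgeR adjusted p = 0.0636). Klk11 was at 2.592 and 4.465 CPM (edgeR adjusted p = 0.0692), Furin at 135.7 and 165.4 CPM (adjusted p = 0.187), Tmprss2 at 119.4 and 124.9 CPM (adjusted p = 0.744) and F10 at 11.51 and 11.81 CPM (adjusted p = 0.985). The F10 means were close only through control 1, at 28.6 CPM and above every mutant-labelled library. The other controls were at 5.33 to 6.61 CPM, below every mutant-labelled library, so this test cannot show that F10 was unchanged. Tmprss11e had too few counts to be tested. The log2 difference of F2rl1, the receptor itself, was 0.12 ± 0.09 (SE), as given above.

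Around Ptger4, the prostaglandin enzyme Ptgs2, or COX-2, rose from 14.49 to 21.51 CPM (1.48-fold, edgeR adjusted p = 0.0238). Ptges, a synthase of prostaglandin E2, rose from 28.29 to 46.97 CPM (1.66-fold, edgeR adjusted p = 0.0484). The related Ptgs1 was at 123.5 and 179.9 CPM, without overlap, but did not pass the test (edgeR adjusted p = 0.111). Nor did Ptges2, at 19.06 and 19.28 CPM (edgeR adjusted p = 0.932), and Ptges3, at 114.1 and 127.7 CPM (adjusted p = 0.332). Hpgd, which breaks prostaglandin E2 down, was at 743.1 ± 334 CPM in controls, against 369.2 ± 55.8 CPM in mutant-labelled libraries and missed the threshold (SD, n = 4 each; edgeR adjusted p = 0.0693). Controls 1 and 4 were at 425 and 485 CPM of Hpgd and controls 2 and 3 at 1010 and 1050 CPM, the same split as in Ptger4 and P2ry2 but in the other direction. The call of Ptgs2 failed with control 2, control 3, mutant-labelled library 2 or library 4 left out (edgeR adjusted p up to 0.0729). That of Ptges failed with control 2, control 3 or any mutant-labelled library left out (edgeR adjusted p up to 0.142).

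Around P2ry2 and Adora2b, Entpd3, an enzyme that removes ATP outside the cell, rose 1.56-fold from 6.095 to 9.517 CPM (edgeR adjusted p = 0.0176). The nucleoside transporter Slc28a3 rose 2.59-fold from 1.029 to 2.666 CPM (edgeR adjusted p = 0.00846). The Entpd3 call failed with control 2 or mutant-labelled library 1 or 2 left out (edgeR adjusted p up to 0.0665). Nt5e, or CD73, which makes adenosine outside the cell, did not pass the test, at 109.1 and 115.3 CPM (edgeR adjusted p = 0.648). Slc29a1, another nucleoside transporter, was lower without overlap but not called, at 134.5 and 91.19 CPM (edgeR adjusted p = 0.0643). So were Adk, at 94.06 and 78.05 CPM (edgeR adjusted p = 0.0758), and Entpd5, 1.23-fold lower (adjusted p = 0.0636). Entpd1 overlapped, at 184.2 and 160.7 CPM (edgeR adjusted p = 0.582). Enpp1 and Panx1 were higher with overlap and did not pass (edgeR adjusted p = 0.152 and 0.27).

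Around Ffar4, the fatty acid transporter Cd36 fell 1.57-fold from 1238 to 787 CPM (edgeR adjusted p = 0.041), and Scd1, which makes monounsaturated fatty acids, rose 2.0-fold from 1547 to 3097 CPM (adjusted p = 0.0412) although its groups overlapped. The Cd36 call was lost without control 2 or 3 or any mutant-labelled library (edgeR adjusted p up to 0.105), and the Scd1 call with control 2, control 3 or mutant-labelled library 2, 3 or 4 left out (adjusted p up to 0.105). Around Vipr1, the peptide genes Vip and Adcyap1 had too few counts to be tested.

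**Figure D4:**
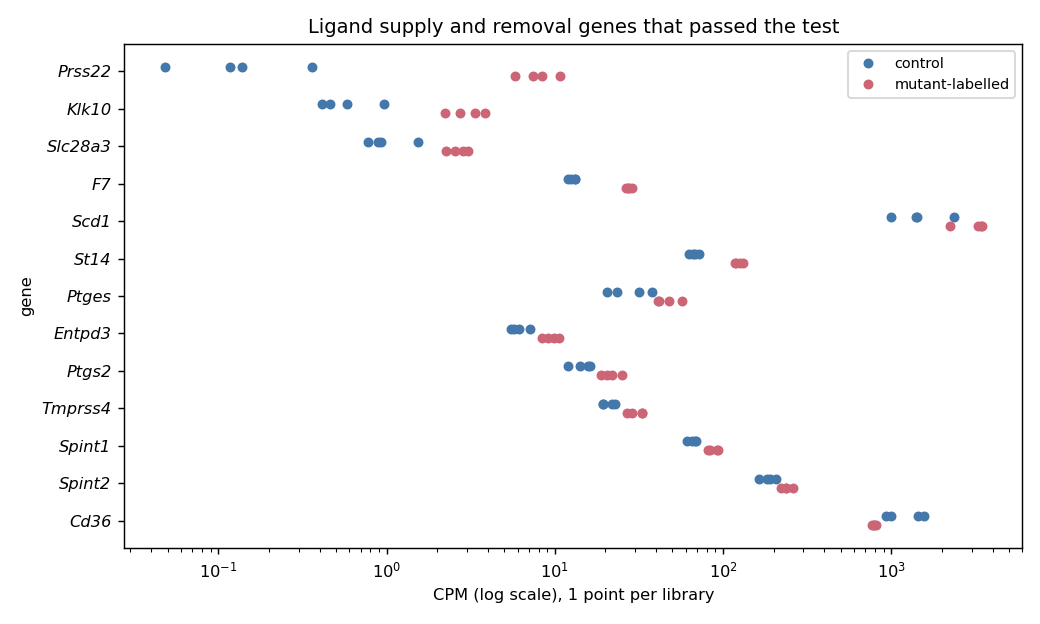
CPM on a log axis of the 13 ligand supply and removal genes that passed the test, 1 point per library, controls above and mutant-labelled libraries below on each gene's line. Prss22 shows the widest separation, and Scd1 overlaps between the groups.

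Downstream of the receptors, 84 of 87 genes of G proteins, effectors and regulators were tested, and 1 rose and 5 fell (7.14% called, against 7.81% of all genes, with a median of -0.12). Rgs16, which shortens Gi and Gq signals, rose 3.05-fold, from 3.52, 1.86, 1.53 and 1.79 CPM to 7.02, 5.78, 6.27 and 7.74 CPM (edgeR adjusted p = 0.00515). Every mutant-labelled library was above control 1, the highest control. The genes that fell were the adenylyl cyclase Adcy4 (1.35-fold, edgeR adjusted p = 0.0162), Rapgef4, a target of cyclic AMP (1.67-fold, adjusted p = 0.0265), the calcium channel Itpr2 (1.43-fold, adjusted p = 0.0288), Ramp2, a receptor partner (1.52-fold, adjusted p = 0.0336), and Rgs5 (1.55-fold, adjusted p = 0.0497). Endothelial cells also express Adcy4 and Ramp2 and pericytes Rgs5, and the endothelial marker Pecam1 fell by 0.48 on the log2 scale (edgeR adjusted p = 0.0369, lost without control 2 or 3 or any mutant-labelled library). The part of endothelial RNA in these calls was not tested. Each of the 5 calls was lost with at least 1 single library left out, that of Adcy4 without mutant-labelled library 1 or 4 (edgeR adjusted p up to 0.0627), and those of Rapgef4, Itpr2 and Ramp2 without control 2, control 3 or any mutant-labelled library (adjusted p up to 0.0805, 0.0951 and 0.111). The Rgs5 call failed with control 2, control 3 or mutant-labelled library 1, 3 or 4 left out (edgeR adjusted p up to 0.149). The list's count of lower calls was 11 without control 1, 1 without control 2 or 3, 0 without mutant-labelled library 1 or 4 and 2 without library 2 or 3.

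Of 40 genes known to answer cyclic AMP or calcium, or to carry out the ion transport these receptors control, 37 were tested. In this list 4 rose and 2 fell (16.2% called, against 7.81% of all genes), and the median was 0.08. This list too was chosen with earlier results of these data known, so its share is a description only. Areg, an EGF receptor ligand that cyclic AMP can induce, was at 4.58, 4.13, 4.41 and 4.92 CPM in controls, against 32.6, 33.5, 35.5 and 45.7 CPM in mutant-labelled libraries, 8.14-fold higher (edgeR adjusted p = 3.3e-06). Slc26a4, or pendrin, an anion exchanger of airway epithelium, rose 7.01-fold from 6.064 ± 1.28 to 42.98 ± 26.6 CPM (SD, n = 4 each; edgeR adjusted p = 0.00299). Mutant-labelled library 1 was highest at 81.7 CPM and library 4 lowest at 21.6 CPM, all above the controls. Scnn1b, a subunit of the epithelial sodium channel, fell 1.37-fold from 151.1 to 110.6 CPM (edgeR adjusted p = 0.00328). These 3 calls held without any single library, and that of Slc26a4 was lost without controls 2 and 3 (edgeR adjusted p = 0.097). Cxcl5 (edgeR adjusted p = 0.0245) and Il6 (adjusted p = 0.0408), both with group means under 5 CPM, rose. Cxcl5 ran from 1.49 to 7.43 CPM over the mutant-labelled libraries, and Il6 had 14, 1, 0 and 6 counts in controls 1 to 4. Dusp1 fell 1.25-fold (edgeR adjusted p = 0.0435). The Cxcl5 call failed with control 3 or mutant-labelled library 1 or 2 left out (edgeR adjusted p up to 0.057), and those of Il6 and Dusp1 without control 2, control 4 or any mutant-labelled library (adjusted p up to 0.108 and 0.13). The immediate early genes Crem, Nr4a1 and Fos, and the chloride channel gene Cftr, did not pass the test. Without mutant-labelled library 1 or 2 the count of higher calls was 2, and the count of lower calls was 1 without control 2 or any mutant-labelled library.

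Likeness to each member was measured as the Pearson correlation of log2 CPM over the 8 libraries, across 13037 genes. Where a member's groups do not overlap, this measure follows the group difference. All genes measured in a library also share its depth and cell makeup, so the measure is a description. Adora2b was most like Areg (0.998), Mybpc2 (0.993) and Ccno (0.992). Ffar4 was most like Atp10b (0.997), Clu (0.996) and Itga7 (0.995). Clu, which encodes clusterin, was at 300.2 CPM in controls, against 3100 CPM in mutant-labelled libraries. Vipr1 was most like Ank1 (0.982), Gabre (0.974) and Cmya5 (0.971), which were all lower in mutant-labelled libraries. For Vipr1, 91 genes had a correlation over 0.9. With each group's mean removed, none of the genes named here was among the 3 most like its member.

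The genes most like P2ry2 were Ube2r2 (0.99), Phlda1 (0.989) and Grn (0.988), and 801 genes had a correlation with it over 0.9. Ptger4 was most like Btk (0.99), Ptk2b (0.978) and Slfn2 (0.972), and 162 genes had a correlation with it over 0.9. Btk was at 9.73 CPM in controls, against 10.53 CPM in mutant-labelled libraries, and, like Ptger4, differed little between the groups. F2rl1 was most like Cpz (0.956), Chmp6 (0.955) and Uxt (0.952), and Gprc5a most like Hdac1 (0.968), Rassf10 (0.966) and Engase (0.957). For these last receptors only 11 and 8 genes had a correlation over 0.9.

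**Figure D5:**
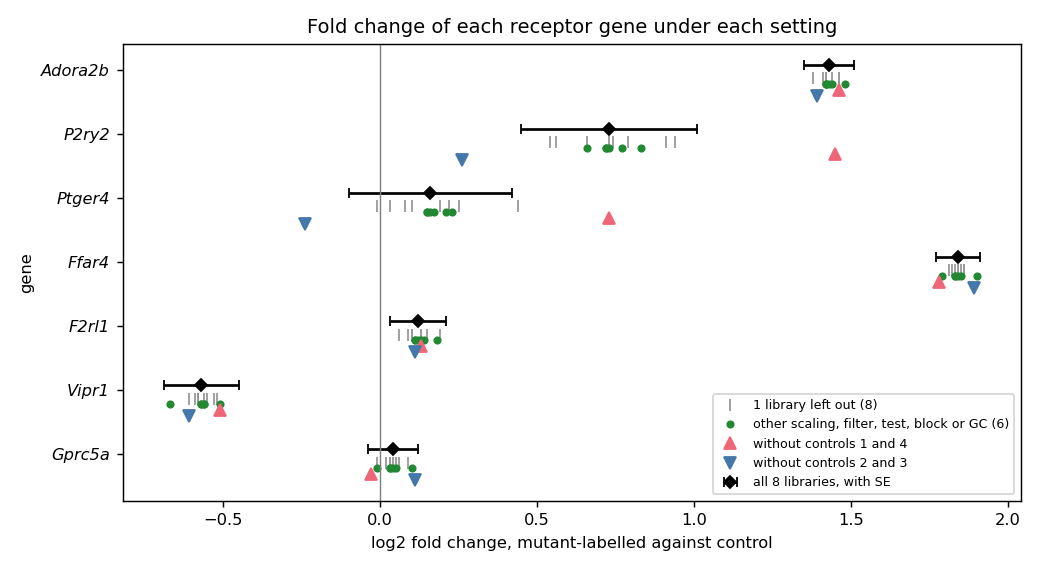
Log2 difference of mutant-labelled minus control for each receptor gene with all 8 libraries (diamond, with SE), with 1 library left out (grey ticks), with other scaling, filter, test, block or GC correction (green), and without controls 1 and 4 or 2 and 3 (triangles). Ffar4, Adora2b, F2rl1 and Vipr1 stay on the same side of 0 in every setting, while P2ry2 runs from 0.26 to 1.45 and Ptger4 from -0.24 to 0.73.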

How the data were processed

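The authors deposited raw counts per gene, 1 column per library, all 8 used. Per the file headers, read pairs were counted with featureCounts 1.6.2 against GENCODE M25, without strand, multi-mapping reads or reads over more than 1 gene. Of the tools before counting, the submitters' processing notes list STAR, Bowtie2 and Cufflinks, and as build GRCm38 (mm10), without roles. The labels name a stranded and an unstranded kit. Symbols came from GENCODE M21 and matched 99.53% of identifiers. Gene positions were taken from the deposited table.

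Groups were compared with edgeR 4.0.16 (R 4.3.3): filterByExpr (minimum count 10, total 15), TMM, robust quasi-likelihood fit, group as the only term, Benjamini-Hochberg adjustment over 16964 genes, threshold 0.05, which called 924 genes higher and 401 lower. The test was tried on simulated data first. Libraries of a group differed by more than sampling noise (chi-square per gene 4.88 to 45.58), so each was counted once.

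The members and the gene lists were chosen with earlier results of these data known. Named genes are the members, up to 4 calls per list and direction with the lowest adjusted p, the highest paralog per family, the 3 genes most like each member, Epcam, Pecam1 and Cdh1. Tmprss4, Spint1, Spint2, Ptgs1, Ptgs2, Ptges, Ptges2, Ptges3, Hpgd, Prss8, Klk11, Furin, Tmprss2, F10, Tmprss11e, Sftpc, Ptprc, Lyz2, Entpd1, Entpd3, Entpd5, Enpp1, Panx1, Adk, Slc28a3, Slc29a1, Scd1, Nt5e, Vip, Adcyap1, Rgs5, Crem, Nr4a1, Fos and Cftr were added after their values were seen. Alternatives covered scaling, filter, DESeq2 1.42.0, a replicate block, a GC correction (chosen after seeing the data) and libraries left out.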

Additional observations from a re-analysis of the deposited data

Results flagged for a closer look

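Rgs16, a regulator of G protein signals, stood out in control 1, at 3.52 CPM against 1.53 to 1.86 CPM in the other 3 controls. Its gap to the nearest control was more of the group's range than Dixon's 95% critical value for 4 samples. Of 80 groups checked this was the 1 that passed it, and chance flags about 1 in 20 groups. The check did not cover F10, where control 1 was at 28.6 CPM and the other 3 controls at 5.33 to 6.61 CPM.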

How the results depend on the processing

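The receptors kept their direction in all alternatives, except Ptger4 and Gprc5a, whose differences were within their SE. Leaving out 1 library gave log2 differences of 1.38 to 1.46 for Adora2b, 1.81 to 1.86 for Ffar4, 0.06 to 0.19 for F2rl1, -0.61 to -0.52 for Vipr1, -0.01 to 0.09 for Gprc5a, 0.54 to 0.94 for P2ry2 and -0.01 to 0.44 for Ptger4. Without controls 1 and 4 P2ry2 was at 1.45 and Ptger4 at 0.73, and with the GC trend of each library removed Vipr1 was at -0.67.

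Over all genes, 3750 were higher and 3338 lower without controls 1 and 4, 223 were lower without controls 2 and 3, and 939 were lower by DESeq2. Leaving out 1 library gave 515 to 1517 higher (most without control 1, fewest without mutant-labelled library 1) and 146 to 1117 lower (likewise). The higher share of calls was 69.7%, 78.4% by library totals and 58.7% by DESeq2.

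Without controls 1 and 4, calls higher and lower were 8 and 4 for paralogs, 17 and 11 for ligand genes, 19 and 29 for G proteins and effectors, 17 and 4 for cyclic AMP and calcium genes, and 37 and 34 for other receptors. Without controls 2 and 3 they included 0 lower ligand genes, 2 higher and 2 lower effectors, 1 higher response gene and 4 lower receptors. DESeq2 gave 1 lower paralog, 8 lower ligand genes, 2 higher and 11 lower effectors and 15 lower receptors. With no filter there were 1 lower paralog, 3 lower ligand genes, and 2 higher and 8 lower effectors. The GC correction gave 1 lower paralog and 2 lower ligand genes, DESeq2 size factors 2 lower ligand genes, and library totals 2 higher effectors and 1 lower response gene. Leaving out 1 library gave 3 to 4 higher and 0 to 1 lower paralogs, 7 to 14 and 0 to 9 ligand genes, 1 to 2 and 0 to 11 effectors, 2 to 6 and 1 to 2 response genes, and 4 to 13 and 3 to 18 other receptors. The cause of these shifts was not tested, beyond the fewer libraries in those fits.

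A replicate block gave 865 genes higher and 371 lower, 1 lower paralog, 3 lower ligand genes, 8 lower effectors and 1 lower response gene. Same-numbered libraries did not deviate together (correlations 0.007, 0.129, -0.123 and 0.134), so they share only a number, and not every library was closest to its own number. Near the floor of 3 counts (0.1358 to 0.2066 CPM), levels such as Prss22 in controls are not resolved.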
